A study of Mus musculus with 16 samples.

Results

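The genes of MHC class I antigen presentation were followed in BCR-ABL1p185+ mouse bone marrow cell lines with and without Cdk8 and with and without the CDK8/CDK19 kinase inhibitor Senexin B. The 10 members were a fixed list of named genes (H2-K1, H2-D1, B2m, Tap1, Tap2, Tapbp, Nlrc5, Psmb8, Psmb9 and Psmb10), matched by symbol among 50686 gene identifiers, of which 29942 had at least 1 count. All 10 were counted in all 16 libraries, and the lowest count of a member in a library was 186, for Tap2. RNA was sequenced from 4 Cdk8 fl/fl lines (labelled wildtype) and 4 Cdk8Δ/Δ Vav-Cre lines (labelled Cdk8-ko) of strain C57BL/6N. Each line received either 0.01% DMSO or 1 µM Senexin B for 48 h before RNA isolation, which gave 4 groups of 4 libraries. All 8 lines were derived individually by retroviral transduction of bone marrow with BCR-ABL1p185 and share this oncogene. Vav-Cre is a recombinase active in haematopoietic cells. In GRCm38, B2m lies at chr2:122147686-122153083, Nlrc5 at chr8:94434356-94527272 and Psmb10 at chr8:105935735-105938444. The other 7 members lie in the MHC region of chr17, with Psmb9, Tap1, Psmb8 and Tap2 side by side from chr17:34181988-34187764 (Psmb9) to chr17:34203527-34216321 (Tap2), and with H2-K1 at chr17:33996017-34000333 and H2-D1 at chr17:35262730-35267499. All annotated exons of a gene were counted together.

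MHC class I molecules show peptides from inside the cell to CD8+ T cells and to NK cells. The proteasome cuts proteins into peptides, and in immune cells the subunits encoded by Psmb8, Psmb9 and Psmb10 replace the catalytic subunits of Psmb5, Psmb6 and Psmb7 to form the immunoproteasome. The transporter TAP1/TAP2 carries the peptides into the endoplasmic reticulum, tapasin (Tapbp) helps to load them, and the heavy chains H2-K1 and H2-D1 bind them together with beta-2-microglobulin (B2m). NLRC5 is the transactivator of class I genes and acts at promoter boxes that are also bound by RFX, CREB/ATF and NF-Y factors. Interferons raise most of these genes.

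Promoter sequences were available for 8 of the 10 members in the RefSeq table of GRCm38.p6. The 250 bases before the start were searched on both strands for TTTCACTT (core of the interferon response element), GGGATTCCC (a kappa B element), TGACG (core of the X2 box) and ATTGG (inverted CCAAT, core of the Y box). The letters were chosen after the sequences had been seen. All 4 were found before H2-K1, H2-D1 and the non-classical heavy chain gene H2-Q7, and 3 before H2-Q6, where TGACG was not among the letters of this window. Before B2m, Tap1 and Psmb9 only TGACG and ATTGG were found, before Tapbp only ATTGG, and before Psmb8 and Psmb10 none of the 4. The windows of Tap1 (chr17:34187306-34187555, plus strand) and Psmb9 (chr17:34187331-34187580, minus strand) overlap. The matches before Tap1 and before Psmb9 are the same bases. They lie at -86 and -222 from the Tap1 start, against -78 and -53 for B2m, and whether they form these boxes was not tested. The windows of H2-D1, Tap1, Tapbp, Psmb8 and Psmb9 lie wholly (250 of 250 bases) in exons of the gene models used for counting, and those of Psmb10 (52 bases) and B2m (1 base) in part, so a missing match there says nothing of other start sites. The same search found only TTTCACTT before the interferon-induced gene Gbp2, which was lower with Senexin B. Before the heavy chain gene H2-Q4 it found TTTCACTT, TGACG and ATTGG. These windows held 61 (Gbp2) and 250 (H2-Q4) exon bases. A link of these letters to the response to Senexin B was not tested. Of all 32851 promoters searched, 1.36% held TTTCACTT, 0.301% GGGATTCCC, 17.8% TGACG and 33.8% ATTGG. Windows without annotated exon bases are shown for 3 genes, with the matches in capitals, because H2-K1 had the lowest p of the members with Senexin B over both genotypes and H2-Q6 and H2-Q7 passed a test described below. They lie at chr17:34000334-34000583 on the minus strand (H2-K1), chr17:35424600-35424849 on the plus strand (H2-Q6) and chr17:35438905-35439154 on the plus strand (H2-Q7), 5′ to 3′.
H2-K1: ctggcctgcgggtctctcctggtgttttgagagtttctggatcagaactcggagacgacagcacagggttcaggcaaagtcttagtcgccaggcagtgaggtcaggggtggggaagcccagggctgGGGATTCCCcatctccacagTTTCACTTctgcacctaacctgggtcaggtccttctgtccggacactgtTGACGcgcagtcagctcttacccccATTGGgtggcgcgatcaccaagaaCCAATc
H2-Q6: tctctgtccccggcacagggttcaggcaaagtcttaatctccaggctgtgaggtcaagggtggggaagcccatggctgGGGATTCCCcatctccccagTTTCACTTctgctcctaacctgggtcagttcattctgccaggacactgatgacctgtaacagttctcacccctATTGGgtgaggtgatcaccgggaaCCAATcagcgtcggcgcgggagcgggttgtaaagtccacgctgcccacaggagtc
H2-Q7: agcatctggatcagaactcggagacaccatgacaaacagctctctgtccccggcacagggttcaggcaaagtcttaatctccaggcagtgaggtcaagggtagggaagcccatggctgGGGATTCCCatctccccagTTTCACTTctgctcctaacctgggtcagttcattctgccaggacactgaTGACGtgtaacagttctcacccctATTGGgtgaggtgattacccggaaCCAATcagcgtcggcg

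Library totals ran from 13145876 to 18349425 reads assigned to genes. The summed level of 10 pro-B markers ran from 5310 to 7524 normalised CPM (counts per 1e+06 reads) in fl/fl DMSO, 6476 to 7912 in fl/fl Senexin B, 5817 to 7071 in knockout DMSO and 5342 to 7036 in knockout Senexin B. This sum does not show single genes: Rag1, 1 of the 10, ran from 1.22 to 124 CPM. Between the genotypes in DMSO the log2 fold changes of these markers ran from -0.31 to 3.51, and none was called. The 4 T cell markers summed to at most 0.339 CPM in any library and the 3 dendritic cell markers to at most 0.760. The 3 mature B markers summed to 12.5 to 74.2 CPM over all libraries. Other lists summed to at most 24.8 CPM (myeloid), 80.7 (NK cells), 265 (erythroid) and 493 (stromal and endothelial) in a library. Within these lists Elane (myeloid) and Ncr1 (NK cells) were at 0, and Col1a1 (stromal) was at or below 0.304 CPM. Single genes of these lists were nonetheless present: Klrb1c reached 80.7 CPM and Lyz2 24.7 CPM, Hbb-bt ran from 2.68 to 265 CPM and Pecam1 from 48.5 to 493 CPM. Their part in the results was not tested. Cdk8 had 62.9 to 67.3 CPM in fl/fl DMSO and 35.4 to 50.5 CPM in knockout DMSO. These groups did not overlap, as in 2.95% of the genes tested, but reads remained at the locus (log2 fold change -0.55 ± 0.14 SE, unadjusted p = 0.00368, adjusted p = 0.897 by edgeR). With Senexin B the groups overlapped, at 54.9 to 89.4 CPM in fl/fl and 40.8 to 60.3 CPM in knockout lines. The log2 fold change there was -0.44 ± 0.22 SE (unadjusted p = 0.0783, edgeR). The counts span the whole gene and do not resolve the deleted exons. The Senexin B library of fl/fl line 2 stood apart: genes with under 1000 exon bases were higher in it by 0.75 on the log2 scale relative to genes with over 8000, against -0.23 to 0.06 in the other 15 libraries. Values of B2m, which was highest in this library, are given with and without it. H2-K1 also had its highest level of all libraries there, at 885 CPM. In bulk RNA, fewer expressing cells and less RNA per cell cannot be told apart.

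Per kilobase of exon, B2m was the most abundant member in every group, with a median of 4380 CPM per kb over 16 libraries and a range of 2924 to 8470. H2-K1 followed with a median of 236 and H2-D1 with 154 CPM per kb, and their ranges of 142 to 339 and 107 to 198 overlapped. Psmb10, Tapbp, Tap1, Psmb8, Nlrc5 and Psmb9 came next with medians between 22.7 and 39.7 CPM per kb, and the ranges of these neighbours overlapped. Their order depends on the length used. Annotated exons span 3659 bases for Psmb9 and 5476 for Tap1, whereas their longest coding transcripts have 1352 and 2953. Levels per transcript length were not computed. Tap2 was the lowest member, with a median of 7.48 CPM per kb and a range of 3.54 to 11.4. Per exon length, Tap2 thus lay below its partner Tap1, which had 29.0 to 61.0 CPM per kb.

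**Figure D1:**
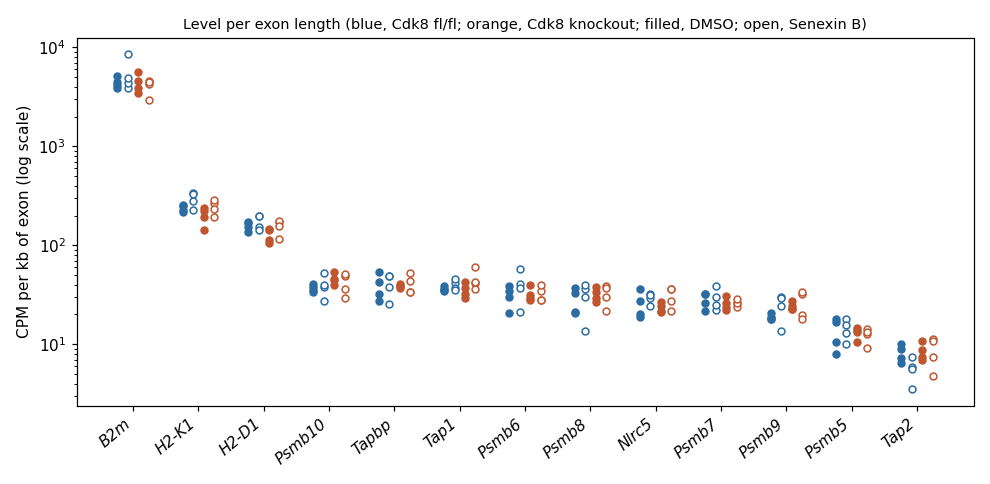
Level of each member and of the constitutive subunits Psmb5, Psmb6 and Psmb7 in 16 libraries, in CPM per kb of exon on a log axis; each point is 1 library, filled for DMSO, open for Senexin B, blue for Cdk8 fl/fl and orange for the knockout. B2m lies between 2924 and 8470 CPM per kb and Tap2 at or below 11.4.

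The immunoproteasome subunits were set beside the constitutive subunits that they replace. Per kb of exon, the ratio of Psmb8 to Psmb5 was 2.17 ± 0.32 (SD, n = 4) in fl/fl DMSO, 2.05 ± 0.51 in fl/fl Senexin B, 2.45 ± 0.16 in knockout DMSO and 2.58 ± 0.44 in knockout Senexin B. The ratio of Psmb9 to Psmb6 stayed below 1 in all 16 libraries, between 0.531 and 0.917. The ratio of Psmb10 to Psmb7 was above 1 in all 16 libraries, between 1.12 and 2.43. Of the 50-base windows of the Psmb5 transcript 42.9% were unique among annotated transcripts, against 94.2% for Psmb8, and 71.9% of those of Psmb7, against 100% for Psmb10. Reads from shared windows may be missing, so the ratios of Psmb8 to Psmb5 and of Psmb10 to Psmb7 may be too high and do not order the subunits. Psmb6 had 97.3% and Psmb9 87.5% unique windows. The ratios also depend on the length used. Annotated exons span 3659 bases for Psmb9, 1872 for Psmb6, 1705 for Psmb10 and 3421 for Psmb7. Their longest coding transcripts have 1352, 798, 1311 and 1160 bases. Ratios per transcript length were not computed, so none of these ratios orders the subunits.

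Among the 8 lines in DMSO the median SD of log2 CPM was 0.26 for the members and 0.33 for all genes tested. Knockout line 4 had the lowest level of 4 members (H2-K1, H2-D1, B2m and Tap1), whereas fl/fl lines 1 and 4 had the lowest level of 3 members each. Knockout line 1 had the highest level of 3 members. No line was at one end for all members.

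**Figure D2:**
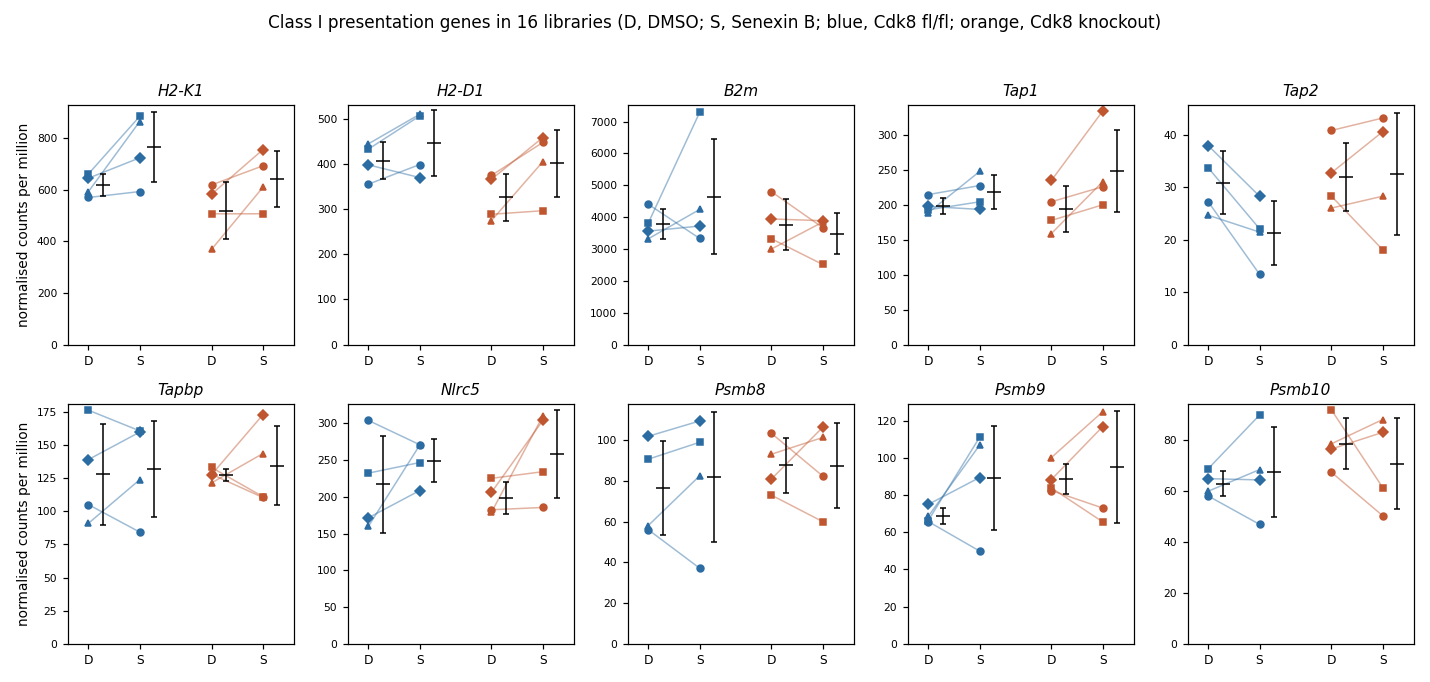
Normalised CPM of the 10 members in all 16 libraries, with D for DMSO and S for Senexin B; circles, squares, diamonds and triangles are lines 1 to 4 of each genotype, joined within a line, and bars show mean ± SD (n = 4). The groups overlap for every member except Psmb9 between the genotypes in DMSO.

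The first comparison asked whether loss of CDK8 changed the class I genes in untreated cells. No member was called in DMSO, at an adjusted p under 0.05 and over 2-fold by edgeR, where 0.00759% of 13174 genes were called. DESeq2 also called no member (0.117% of genes called), and edgeR gave an unadjusted p under 0.05 for 2 members against 5.32% of all genes. The members' median log2 fold change, knockout over fl/fl, was 0.02, beside 0.00 for all genes tested.

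Psmb9, the immunoproteasome beta-1i subunit, showed the lowest p of the members. Its level was 65.8, 66.3, 75.0 and 68.6 CPM in fl/fl lines 1 to 4 and 82.4, 83.9, 88.4 and 100.2 CPM in knockout lines 1 to 4. All knockout libraries lay above all fl/fl libraries, a separation in either direction that 2.95% of the genes tested showed. The log2 fold change was 0.39 ± 0.11 (SE), with an unadjusted p of 0.00546 and an adjusted p of 0.897 by edgeR. Psmb10, the beta-2i subunit, had 57.9, 68.6, 64.7 and 59.8 CPM in the fl/fl lines and 67.2, 91.7, 76.3 and 78.4 CPM in the knockout lines. The groups overlapped by knockout line 1, and the log2 fold change was 0.35 ± 0.13 (unadjusted p = 0.0249, adjusted p = 0.897, edgeR). Psmb8, the third inducible subunit, had a log2 fold change of 0.22 ± 0.21. Their constitutive partners had -0.10 to 0.10, namely 0.01 for Psmb5, 0.10 for Psmb6 and -0.10 for Psmb7. Psme1, a subunit of the interferon-inducible proteasome activator PA28, had 0.40 ± 0.14 (unadjusted p = 0.0209, adjusted p = 0.897, edgeR). Psme2, which encodes its partner in PA28, had 0.06 ± 0.20 (unadjusted p = 0.788, edgeR).

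The heavy chains pointed the other way. H2-D1 had 355, 433, 398 and 445 CPM in fl/fl DMSO and 375, 289, 366 and 275 CPM in knockout DMSO, with a log2 fold change of -0.30 ± 0.13 (unadjusted p = 0.0543 by edgeR). H2-K1 had 571, 662, 645 and 593 CPM against 619, 507, 583 and 369 CPM, with a log2 fold change of -0.23 ± 0.16. For both genes knockout line 4 was lowest and the groups overlapped. B2m (0.02 ± 0.18), Tap1 (-0.01 ± 0.13), Tap2 (0.07 ± 0.19), Tapbp (0.02 ± 0.19) and Nlrc5 (-0.11 ± 0.22) lay within 1 SE of 0.

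With Senexin B in both genotypes, again no member was called by edgeR (0% of 13010 genes called) or DESeq2 (0.0362% of genes called), and no member had an unadjusted p under 0.05, against 1.55% of all genes. The members' median log2 fold change was 0.07, beside 0.00 for all genes. The differences in Psmb9 and Psmb10 seen in DMSO were 0.09 ± 0.31 and 0.07 ± 0.25 here, and every member's groups overlapped, whereas those of 1.02% of the genes tested did not. Tap2 had the largest value, 0.61 ± 0.32 (unadjusted p = 0.0880). B2m had -0.41 ± 0.30. Without the fl/fl Senexin B library of line 2 that value was -0.10.

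**Figure D3:**
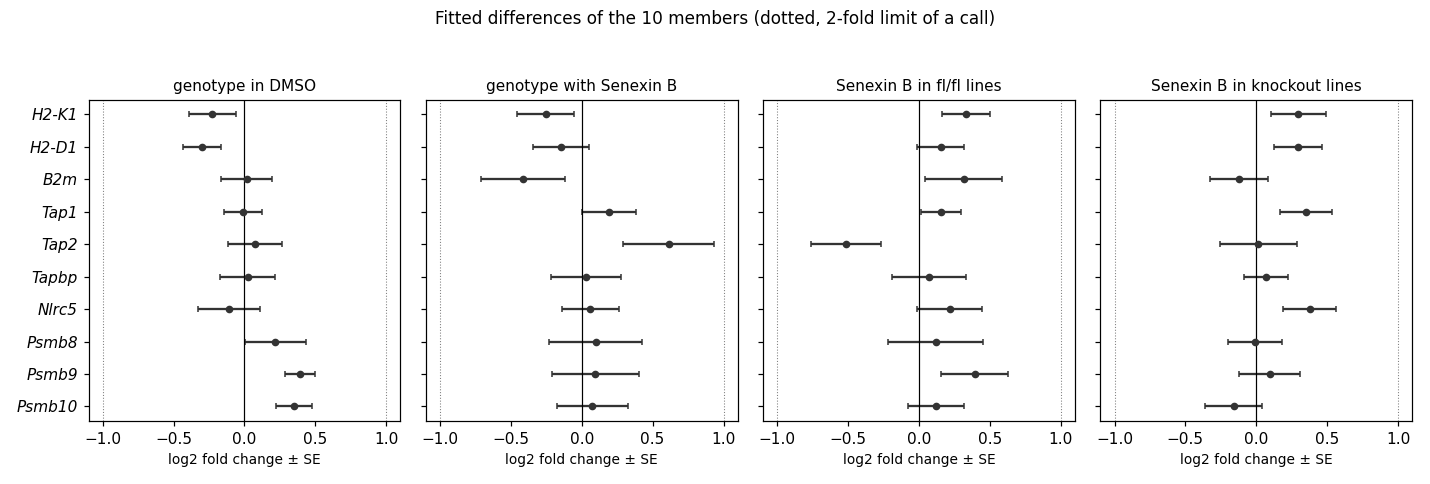
Fitted log2 fold change ± SE of each member in 4 comparisons (knockout over fl/fl in DMSO and with Senexin B; Senexin B over DMSO in fl/fl and in knockout lines), without the line as a block; dotted lines mark 2-fold. No member reaches 2-fold in any of the 4 panels.

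The next comparisons asked what kinase inhibition did within a line. The DMSO and the Senexin B library with the same number share a line, so each result is also given with the line as a block where this moves a count of calls. No member was called in fl/fl lines (0% of 12989 genes called by edgeR, 0.346% with the block) or in knockout lines (0% of 13285 genes, 0.0527% with the block). Without the block no member had an unadjusted p under 0.05 in either (3.8% and 1.83% of all genes). With the block Tap2 did in fl/fl lines and H2-D1, Tap1 and Nlrc5 in knockout lines, where 10.3% of all genes did in each. Over both genotypes no member was called either, with 0% of 14164 genes called without the block and 0.946% with it. DESeq2 called no member in fl/fl lines (0.0701% of genes called), in knockout lines (0%) or over both (0.0572%). Over both genotypes the members' median log2 fold change was 0.16, or 0.12 with the block, beside 0.01 and 0.00 for all genes. An unadjusted p under 0.05 was reached by 2 members without the block (4.86% of all genes) and by 4 with it (16.4% of all genes), all 4 of them higher with Senexin B (7.79% of all genes).

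H2-K1 was higher with Senexin B in 8 of 8 lines, as were 1.95% of the genes tested. The ratio of Senexin B to DMSO was 1.04, 1.34, 1.12 and 1.46 in fl/fl lines 1 to 4 and 1.12, 1.00, 1.30 and 1.65 in knockout lines 1 to 4. Knockout line 2 was at the limit of this count, with 507 CPM in both libraries. The log2 fold change over both genotypes was 0.31 ± 0.12 (unadjusted p = 0.0205, adjusted p = 0.854, edgeR), and with the block 0.31 ± 0.10 (unadjusted p = 0.00879, adjusted p = 0.134). Under the block with any 1 line left out, fl/fl line 2 among them, it ran from 0.25 to 0.35. H2-D1 was higher in 7 of 8 lines, with ratios from 0.929 in fl/fl line 3 to 1.47 in knockout line 4 and with the block a log2 fold change of 0.21 ± 0.08 (adjusted p = 0.234, edgeR). B2m, the shared light chain, was higher in 4 of 8 lines and lower in the other 4. Its level in fl/fl lines 1 to 4 was 4405, 3814, 3561 and 3319 CPM in DMSO and 3332, 7284, 3720 and 4240 CPM with Senexin B, where the value of 7284 is the library that stood apart. In the knockout lines it was 4797, 3320, 3943 and 3000 CPM in DMSO and 3671, 2514, 3888 and 3846 CPM with Senexin B. The log2 fold change of B2m over both genotypes was 0.06 ± 0.16 with the block, and -0.07 when fl/fl line 2 was left out. In fl/fl lines alone it was 0.31 ± 0.27 without the block, and 0.0078 without that Senexin B library.

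Tap1 was higher in 7 of 8 lines. It had 215, 193, 198 and 189 CPM in fl/fl DMSO and 228, 204, 193 and 248 CPM with Senexin B, and in the knockout lines 204, 178, 235 and 159 CPM in DMSO and 226, 200, 334 and 233 CPM with Senexin B. The log2 fold change with the block was 0.24 ± 0.09 over both genotypes (unadjusted p = 0.0164, adjusted p = 0.181, edgeR). Its partner Tap2 was lower in 4 of 4 fl/fl lines, as were 9.21% of the genes tested, and higher in 3 of 4 knockout lines. The mitochondrial share of counts was also higher with Senexin B in 4 of 4 fl/fl lines, at 7.92, 6.58, 6.75 and 8.01% in DMSO and 10.4, 10.1, 7.21 and 9.01% with Senexin B, and in 2 of 4 knockout lines, and its part in the Tap2 values was not tested. In fl/fl lines 1 to 4 Tap2 had 27.2, 33.7, 37.9 and 24.6 CPM in DMSO and 13.4, 22.1, 28.3 and 21.4 CPM with Senexin B. In knockout lines it had 40.8, 28.3, 32.7 and 26.0 CPM in DMSO and 43.2, 18.1, 40.5 and 28.3 CPM with Senexin B. The log2 fold change with the block was -0.54 ± 0.18 in fl/fl lines (adjusted p = 0.339) and -0.03 ± 0.16 in knockout lines (adjusted p = 0.964). The difference between them, tested as an interaction by edgeR, was 0.54 ± 0.38 (adjusted p = 1.00), and 0.52 ± 0.25 with the block (adjusted p = 0.991). Tapbp, the peptide editor, was higher in 4 of 8 lines with a log2 fold change of 0.05 ± 0.11.

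Nlrc5, the transactivator, was higher in 7 of 8 lines, with ratios of 0.891, 1.06, 1.22 and 1.69 in the fl/fl lines and 1.02, 1.04, 1.47 and 1.73 in the knockout lines. Lines 3 and 4 of each genotype carried the larger ratios. The log2 fold change with the block was 0.30 ± 0.12 over both genotypes (unadjusted p = 0.0266, adjusted p = 0.229, edgeR). For Nlrc5, H2-D1 and Tap1 the share of all genes higher in 7 of 8 lines was not computed, so these counts have no background.

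The immunoproteasome subunits went in different directions in different lines. Psmb8 and Psmb9 were each higher in 5 of 8 lines and Psmb10 in 4 of 8. Psmb9 had 65.8, 66.3, 75.0 and 68.6 CPM in fl/fl DMSO and 49.9, 111, 89.5 and 107 CPM with Senexin B, and in the knockout lines its Senexin B libraries had 73.0, 65.6, 117 and 125 CPM. Line 1 of each genotype and knockout line 2 had ratios below 1 for all 3 subunits. The log2 fold changes over both genotypes with the block were 0.01 ± 0.12 (Psmb8), 0.18 ± 0.14 (Psmb9) and -0.06 ± 0.11 (Psmb10), with edgeR adjusted p-values of 0.983, 0.571 and 0.864. Psmb5, Psmb6 and Psmb7 had 0.03 ± 0.10, 0.15 ± 0.10 and 0.04 ± 0.07.

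**Figure D4:**
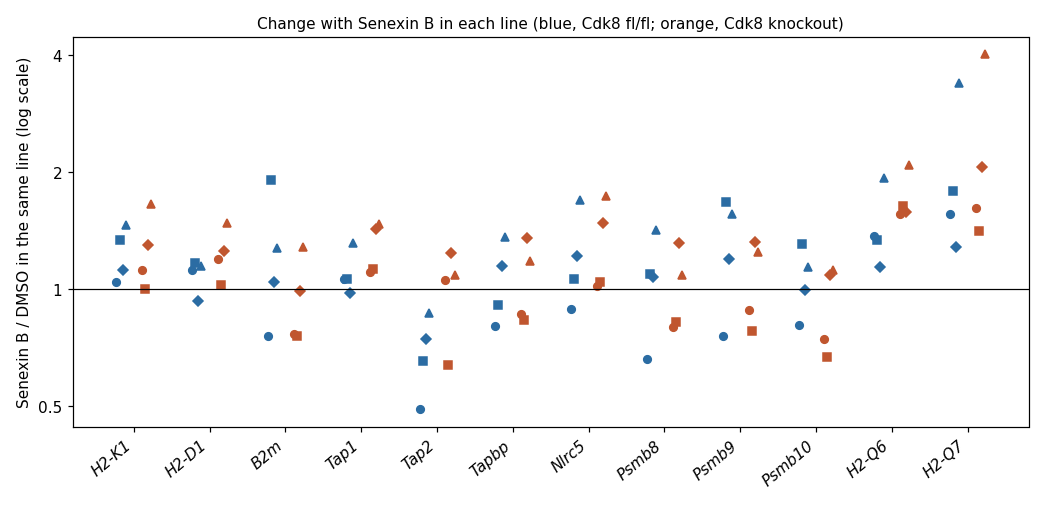
Ratio of Senexin B to DMSO within each line for the 10 members and for H2-Q6 and H2-Q7, on a log axis; each point is 1 line, with symbols for lines 1 to 4, blue for Cdk8 fl/fl and orange for the knockout. H2-Q6 and H2-Q7 lie above 1 in all 8 lines, and Tap2 lies below 1 in all 4 fl/fl lines.

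No member was called in the interaction test of edgeR for the response to Senexin B between the genotypes, with or without the block (0% of 14164 genes called). An unadjusted p under 0.05 was reached by 0.473% of genes without the block and 3.24% with it. A missing call with few lines per genotype does not show equal responses. The members' interaction log2 fold changes ran from -0.43 (B2m) to 0.54 (Tap2). Without the Senexin B library of fl/fl line 2 the B2m value was -0.12. DESeq2 called no member here.

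Beyond the members, 12 of 17 other class I and class I-like heavy chain genes could be tested over both genotypes. With the line as a block 2 of them, H2-Q6 and H2-Q7, had an adjusted p under 0.05 by edgeR, where 2.63% of all genes did, and the list's median log2 fold change was 0.29. Both encode Qa-2 type non-classical heavy chains. H2-Q6 had 129, 115, 105 and 91.6 CPM in fl/fl lines 1 to 4 in DMSO and 177, 153, 119 and 176 CPM with Senexin B. In knockout lines 1 to 4 it had 80.3, 96.0, 94.2 and 54.6 CPM in DMSO and 125, 157, 148 and 114 CPM with Senexin B. The knockout groups did not overlap, as in 1.6% of the genes tested there, whereas the fl/fl groups did. The log2 fold change was 0.63 ± 0.10 with the block (adjusted p = 0.00820) and 0.63 ± 0.14 without it (adjusted p = 0.315).

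H2-Q7 had 89.9, 68.6, 79.9 and 36.6 CPM in fl/fl DMSO and 140, 122, 103 and 124 CPM with Senexin B, and these groups did not overlap. In knockout lines it had 56.8, 71.8, 72.8 and 21.9 CPM in DMSO and 91.6, 101, 150 and 87.5 CPM with Senexin B, again without overlap. In fl/fl lines 2.05% of the genes tested showed such a separation in either direction. The log2 fold change was 0.97 ± 0.18 with the block (adjusted p = 0.0170, edgeR) and 0.89 ± 0.23 without it (adjusted p = 0.550). With all 8 lines neither gene passed the 2-fold limit. H2-Q7 passed it, and was then called, when fl/fl line 1 (log2 fold change 1.02), fl/fl line 3 (1.06), knockout line 1 (1.02) or knockout line 2 (1.04) was left out with the block. With fl/fl line 2 left out, the adjusted p with the block was 0.0197 for H2-Q6 and 0.0459 for H2-Q7. H2-Q6 and H2-Q7 are near-identical neighbours: 65.0% and 65.1% of their 50-base transcript windows were unique, so how reads divide between them is uncertain.

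**Figure D5:**
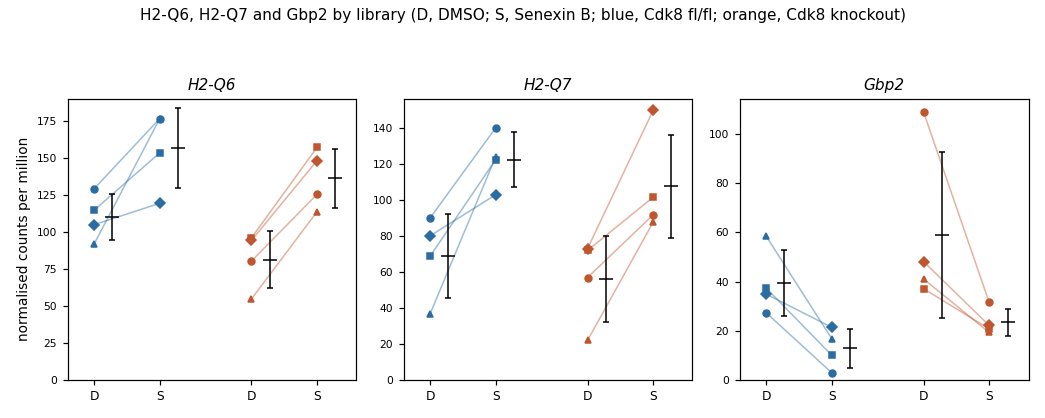
Normalised CPM of H2-Q6, H2-Q7 and Gbp2 in all 16 libraries, with symbols, colours and bars as in the plot of the members by library. Every line moves up with Senexin B for H2-Q6 and H2-Q7 and down for Gbp2.

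Gbp2 and Ifit3, induced by interferon, were lower with Senexin B. Of 10 listed interferon-stimulated genes 9 could be tested over both genotypes. All 9 had a log2 fold change below 0, and these 2 were called lower (0.374% of all genes). The list median was -1.38 with the block, beside -0.0048 for all genes. With the block, 6 of the 6 that could be tested in fl/fl lines lay below 0. In knockout lines 5 could be tested, 4 below and 1 above 0. Gbp2, an interferon-induced GTPase, had 27.3, 37.4, 34.9 and 58.5 CPM in fl/fl DMSO and 2.88, 10.0, 21.4 and 16.8 CPM with Senexin B. In the knockout lines it had 109, 37.1, 48.1 and 41.1 CPM in DMSO and 31.6, 20.7, 22.1 and 19.3 CPM with Senexin B. It fell in 8 of 8 lines, as did 2.58% of the genes tested, and the groups did not overlap in either genotype (2.05% of genes in fl/fl and 1.6% in knockout lines). The log2 fold change was -1.51 ± 0.23 with the block (adjusted p = 0.00890, edgeR) and -1.48 ± 0.33 without it (adjusted p = 0.371). Ifit3 was near the detection limit, at 0 to 1.92 CPM, and under the block its log2 fold change was -1.83 ± 0.40 (adjusted p = 0.0341). Its adjusted p with the block ran from 0.0466 to 0.0904 when a line was left out.

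Among 7 interferon receptor and kinase genes 1, the interferon gamma receptor chain Ifngr2, had an adjusted p under 0.05 with the block, 0.0458 by edgeR. Of all genes tested 2.63% had an adjusted p under 0.05 there. The log2 fold change of Ifngr2 was 0.49 ± 0.12, and it was higher in 8 of 8 lines, as were 1.95% of the genes tested. With fl/fl line 2 left out the adjusted p of Ifngr2 was 0.0545. Of 16 transcriptional regulators of class I genes none was called with or without the block. Nfkb1, the NF-kappaB p50 precursor, lay lower in 8 of 8 lines, as did 2.58% of the genes tested, with a log2 fold change of -0.26 ± 0.07 (adjusted p = 0.0920 with the block). Of 12 proteasome activators and constitutive subunits, and of 8 genes of peptide loading and trimming, none had an adjusted p under 0.05 with the block, with list medians of 0.03 and 0.07.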

How the data were processed

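Poly(A) RNA of the 16 libraries was sequenced as 50-base single-end reads. The authors trimmed the reads with Trimmomatic, mapped them with STAR to GRCm38/mm10 and deposited raw counts per gene from featureCounts 1.5.1 on GENCODE M13. No strand option was set, and reads that mapped to several places or to overlapping genes were not counted, which lowers the counts of gene copies. Tap2 and Tapbp share 18.5% and 22.0% of their exon bases with other genes. All 16 file headers carry the same flow cell and lane tag.

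The counts were analysed with edgeR 4.0.16 (R 4.3.3; TMM, filterByExpr, robust quasi-likelihood test, Benjamini-Hochberg adjustment over all genes tested) on the 8 libraries compared, or 16 for results over both genotypes. A call needed an adjusted p under 0.05 and over 2-fold. CPM are TMM-normalised. DESeq2 1.42.0, RLE size factors, no filter, at least 10 counts in every library, the line as a block, leaving out libraries and a fit over all 16 were the alternatives. Leaving out a line under the block was chosen after seeing the data. Scripts were tested on simulated data.

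The replicate number marks the line within a genotype: deviations from group means correlated at 0.570 to 0.783 between same-numbered fl/fl libraries and 0.771 to 0.872 between knockout libraries (14164 genes). Whether the number also links lines across genotypes was not settled. Same-numbered libraries of the genotypes correlated at -0.152 to 0.261 in DMSO and at -0.139 to 0.424 with Senexin B. Other pairs across genotypes ran from -0.285 to 0.294 and from -0.346 to 0.251. No pair of libraries agreed within sampling noise. The members and lists were chosen with earlier results of these data known. Named genes were the 10 members, Cdk8, the constitutive partners Psmb5, Psmb6 and Psmb7, listed genes called in a comparison with or without the block and, at most, the gene of lowest unadjusted p in each direction per list and comparison. H2-Q6, H2-Q7 and Ifngr2 are named for an adjusted p under 0.05 without the fold limit. H2-Q6 and H2-Q7 together were chosen after their values were seen. Psme2, Hspa5 and H2-Q4 were also named after their values were seen. Promoters come from RefSeq (GRCm38.p6).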

Additional observations from a re-analysis of the deposited data

Results flagged for a closer look

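Of 52 groups of 4 libraries examined (the 10 members, H2-Q6, H2-Q7 and Gbp2 in each group), 2 held a library far from the others, and chance flags about 5% of groups. B2m had 2514 CPM in the Senexin B library of knockout line 2, where the other 3 libraries had 3671 to 3888 CPM. Gbp2 had 109 CPM in the DMSO library of knockout line 1, where the others had 37.1 to 48.1 CPM.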

How the results depend on the processing

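The class I members gave 0 calls in every comparison under every alternative run. Of 1140 recomputed fold changes of members, 1044 kept their direction and 96 changed sign, 86 of these for values whose size was under 0.1 on the log2 scale; the cause was not tested. Counts of called genes did depend on the test. Between the genotypes in DMSO 1 gene was called (Sva, named after its values were seen), against 32 with DESeq2, 0 with at least 10 counts in every library, 0 with the replicate number as a block and 0 without any 1 of the 8 libraries. With Senexin B the genotypes differed in 0 genes, with DESeq2 in 10, with no filter in 1 and in the fit of all 16 libraries in 1. Senexin B against DMSO gave in fl/fl lines 0 genes, with DESeq2 19, with no filter 3, with the block 45 and with the block and no fold limit 46. In knockout lines it gave 0 genes, and 7 with the block, with or without the fold limit. Over both genotypes it gave 0 genes, 17 with DESeq2, 1 with at least 10 counts, 134 with the block and 373 with the block and no fold limit. Leaving out a library or, with the block, a line gave 0 to 538 called genes in fl/fl lines, 0 to 31 in knockout lines and 0 to 178 over both genotypes. With the block, the 538 genes came without fl/fl line 1 and the 31 without knockout line 1. Leaving out a library or line turned the sign of some members' log2 fold changes, given here with their lowest and highest values. Between the genotypes in DMSO it did so for B2m (-0.11 to 0.11), Tap1 (-0.11 to 0.068), Tap2 (-0.059 to 0.17), Tapbp (-0.12 to 0.20) and Nlrc5 (-0.24 to 0.12). Between the genotypes with Senexin B it did so for Tapbp (-0.13 to 0.14), Nlrc5 (-0.039 to 0.20), Psmb8 (-0.14 to 0.27), Psmb9 (-0.10 to 0.23) and Psmb10 (-0.065 to 0.25). With Senexin B in fl/fl lines it did so for Tapbp (-0.082 to 0.25), Psmb8 (-0.12 to 0.36) and Psmb10 (-0.056 to 0.25). With Senexin B in knockout lines it did so for B2m (-0.27 to 0.013), Tap2 (-0.15 to 0.21), Tapbp (-0.078 to 0.15), Psmb8 (-0.16 to 0.13) and Psmb9 (-0.071 to 0.23). With Senexin B over both it did so for B2m (-0.066 to 0.17), Tapbp (-0.0075 to 0.15), Psmb8 (-0.064 to 0.16) and Psmb10 (-0.12 to 0.048). In the test of the interaction it did so for H2-K1 (-0.16 to 0.062), Tapbp (-0.18 to 0.14), Nlrc5 (-0.056 to 0.31) and Psmb8 (-0.36 to 0.044). Other sign changes were small: B2m between the genotypes in DMSO (-3.2e-05 with no filter), Psmb8 in knockout lines with Senexin B (0.00018 with DESeq2), and with the block Tap2 in knockout lines (-0.032) and, in the interaction, H2-K1 (0.0027) and Tapbp (-0.012). With the block and a line left out, the adjusted p stayed between 0.00959 and 0.0227 for H2-Q6, 0.0210 and 0.0459 for H2-Q7 and 0.00274 and 0.0303 for Gbp2 by edgeR over both genotypes, whereas Ifngr2 ran from 0.0268 to 0.121. With the block, H2-Q7 also passed the 2-fold limit when fl/fl line 1 or 3 or knockout line 1 or 2 was left out (log2 fold change 1.02 to 1.06). Without the block none of the 4 genes passed, and the block changed no call of a member. Depth limits Ifit3, which had 0 counts in 1 library.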

Other observations

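Calr and Pdia3 assist class I folding in the endoplasmic reticulum. Calr, which encodes calreticulin, had 326, 379, 334 and 261 CPM in fl/fl DMSO and 652, 466, 344 and 747 CPM in knockout DMSO. The groups overlapped only between fl/fl line 2 and knockout line 3, and the log2 fold change was 0.79 ± 0.25 (unadjusted p = 0.0113, adjusted p = 0.897, edgeR). With Senexin B in fl/fl lines the log2 fold changes were 0.86 ± 0.37 for Calr and 0.74 ± 0.30 for Pdia3, the thiol oxidoreductase of the loading complex, and neither passed the adjusted test (adjusted p = 1.00 for each, edgeR). In fl/fl line 1 both went the other way, with ratios of 0.622 and 0.754. In knockout lines the log2 fold changes were -0.10 ± 0.34 for Calr and 0.03 ± 0.28 for Pdia3, with ratios below 1 in 2 of 4 lines for each gene. Hspa5, which encodes a general chaperone of the endoplasmic reticulum, moved with these 2 genes. Its log2 fold change was 0.69 ± 0.29 between the genotypes in DMSO (unadjusted p = 0.0429, adjusted p = 0.897, edgeR). With Senexin B it was 0.76 ± 0.35 in fl/fl and -0.15 ± 0.32 in knockout lines. Tapbp had 0.02 ± 0.19 between the genotypes in DMSO. Whether these changes concern class I folding was not tested. The genotype comparison in DMSO and the Senexin B comparison in fl/fl lines share the fl/fl DMSO libraries.

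H2-Q7 was lowest in DMSO in line 4 of each genotype, at 36.6 CPM in the fl/fl and 21.9 CPM in the knockout line, and these lines had the highest ratios of Senexin B to DMSO, 3.39 and 4.00. The other 6 lines had ratios of 1.29 to 2.05. A ratio and its own denominator are not independent, and whether the number 4 links the lines of both genotypes was not settled.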
